A study of Bos taurus and Bubalus bubalis with 9 samples.

Results

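Long-span exonic circRNAs are circular RNAs whose back-splice junction joins annotated exons and whose ends lie at least 50000 bp apart in the genome. They were taken as the rows typed as exon in the circRNA tables of buffalo and cattle with an end minus start of 50000 bp or more. The rule kept 1796 distinct junctions of 24221 circRNA junctions in all, or of 21210 exonic ones. The buffalo table held 817 of them among 9593 exonic rows (8.52%), the cattle table held 1239 among 16223 (7.64%), and 260 were listed in both. RNA sequencing of 9 libraries was used, from longissimus dorsi muscle of 3 Xinyang buffalo, labelled low IMF (intramuscular fat), and from muscle and back subcutaneous adipose tissue of 3 Nanyang cattle, labelled high IMF. All animals were castrated and slaughtered at 30 months of age. Part of the study's animals of each species were fattened, and its methods do not state that the sequenced ones were. Species, IMF class and the alignment of buffalo reads to the cattle genome cannot be told apart in these samples.

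A circRNA forms when a splice donor is joined to an acceptor that lies upstream of it, which leaves a covalently closed ring without a poly(A) tail. A junction of this reach encloses long introns, most of which are removed when the ring is made, so the genomic span is not the length of the ring. Genes with such reach tend to be large genes for signalling, adhesion and transcription control, and in muscle and fat they include structural proteins of the muscle fibre and regulators of adipocyte formation.

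Of the 817 buffalo members, 237 had a junction read in the 3 buffalo muscle libraries and 580 had no read in the libraries used. Of the 1239 cattle members, 655 had a read in muscle and 781 in adipose tissue. The median span was 70792 bp in buffalo and 70381 bp in cattle, against 10182 bp and 9107 bp for the other exonic circRNAs. Close to the threshold the reads per circRNA ran on without a step that was seen in all groups. Exonic circRNAs of 45000 to 50000 bp had a mean of 2.74 reads in adipose tissue, 2.88 in cattle muscle and 2.17 in buffalo muscle, and those of 50000 to 55000 bp had 3.01, 3.53 and 2.14. The junction reads of all circRNAs numbered 4472 to 6122 per library in buffalo muscle, 15440 to 27141 in cattle muscle and 12042 to 21053 in cattle adipose tissue, from library totals of 60015034 to 65777231 and of 35712276 to 42265538 reads in buffalo and cattle. Hosts in the list of muscle markers gave 8.49 to 12.99 RPM (junction reads scaled to the library total) of exonic circRNA in cattle muscle and 1.67 to 2.42 RPM in buffalo muscle, and had no read in the adipose libraries. The adipose markers gave 0.516 to 0.780 RPM in adipose tissue against at most 0.132 RPM in a muscle library. ADIPOQ, FABP4, LEP and LIPE of that list hosted no exonic circRNA with a read in any library.

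The first question was how much of the exonic circRNA output came from long-span junctions. In cattle adipose tissue 5.26%, 4.79% and 6.14% of the exonic junction reads of replicates 1 to 3 were long-span. In cattle muscle the values were 2.71%, 3.74% and 3.39%, and in buffalo muscle 3.39%, 3.78% and 3.84%. All 3 adipose libraries lay above all 6 muscle libraries. The mean was 5.40% ± 0.69 (SD, n = 3) in adipose tissue and 3.28% ± 0.52 in cattle muscle, a difference of -2.12 percentage points (muscle minus adipose) with an exact two-sided permutation p of 0.1. That is the smallest p that 3 against 3 libraries can give, so this comparison could not pass a threshold of 0.05, and the p adjusted over the 12 group tests of this kind was 0.2. Buffalo muscle had a mean of 3.67% ± 0.24 and overlapped cattle muscle (buffalo minus cattle 0.39 percentage points, exact permutation p = 0.2). That difference was 0.10 without cattle muscle 1, 0.62 without cattle muscle 2 and 0.12 over junctions with at least 2 reads. Each share rests on 135 to 896 long-span reads, and the 95% exact (Clopper-Pearson) interval ran from 4.84% to 5.70% in adipose 1 and from 2.44% to 3.01% in cattle muscle 1. These intervals cover counting error only, since no molecular identifiers are stated. In bulk tissue, fewer cells of a type and less RNA per cell cannot be told apart.

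Counted as circRNAs in place of reads, adipose tissue was again the highest, and the libraries of the 2 muscles overlapped. The mean of buffalo muscle minus cattle muscle was -0.31 percentage points, -0.0032 without cattle muscle 2 and -0.57 without cattle muscle 1. Of the exonic circRNAs detected in a library, 7.18%, 7.02% and 7.37% were long-span in cattle adipose tissue, 4.86%, 5.99% and 5.25% in cattle muscle and 5.15%, 5.02% and 4.98% in buffalo muscle. Cattle adipose tissue again lay wholly above cattle muscle, with a difference of -1.82 percentage points (exact permutation p = 0.1). With every library thinned to 3000 exonic reads, the share was 6.62% ± 0.55 in adipose tissue, 4.56% ± 0.52 in cattle muscle and 4.97% ± 0.027 in buffalo muscle. The summed level of long-span circRNAs was 19.7 ± 4.42 RPM in adipose tissue and 15.7 ± 5.87 RPM in cattle muscle, which overlapped (exact permutation p = 0.5). Exonic circRNAs as a whole were at 371 ± 115 RPM and 467 ± 113 RPM. In buffalo muscle they summed to 2.42 ± 0.40 RPM, beside 65.8 ± 9.08 RPM for all exonic circRNAs.

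The share splits into the part of the reads that came from hosts with a long-span circRNA and the part of those reads that was long-span. The 578 host genes with a long-span circRNA in the cattle table gave nearly the same part of the exonic reads in both tissues, 29.9% ± 0.82 in muscle and 30.1% ± 0.12 in adipose tissue (exact permutation p = 0.7). Within these hosts, long-span junctions took 9.17%, 12.78% and 11.01% of the reads in muscle and 17.40%, 15.97% and 20.40% in adipose tissue. Since the host part was nearly equal, this is the difference given above on another denominator and not a second result. A host entered the set through reads in either tissue. Of the 136 such hosts with at least 20 exonic reads in each tissue, 86 had the higher long-span share in adipose tissue and 50 in muscle, with a median share of 8.08% and 5.41%. The 10 hosts with most long-span reads gave 22.0% of them in adipose tissue and 25.5% in muscle. Without the 10 leading hosts of both tissues together, which were left out after their values were seen, the share was 4.04% to 5.12% in the adipose libraries and 2.18% to 2.88% in the cattle muscle libraries.

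**Figure D1:**
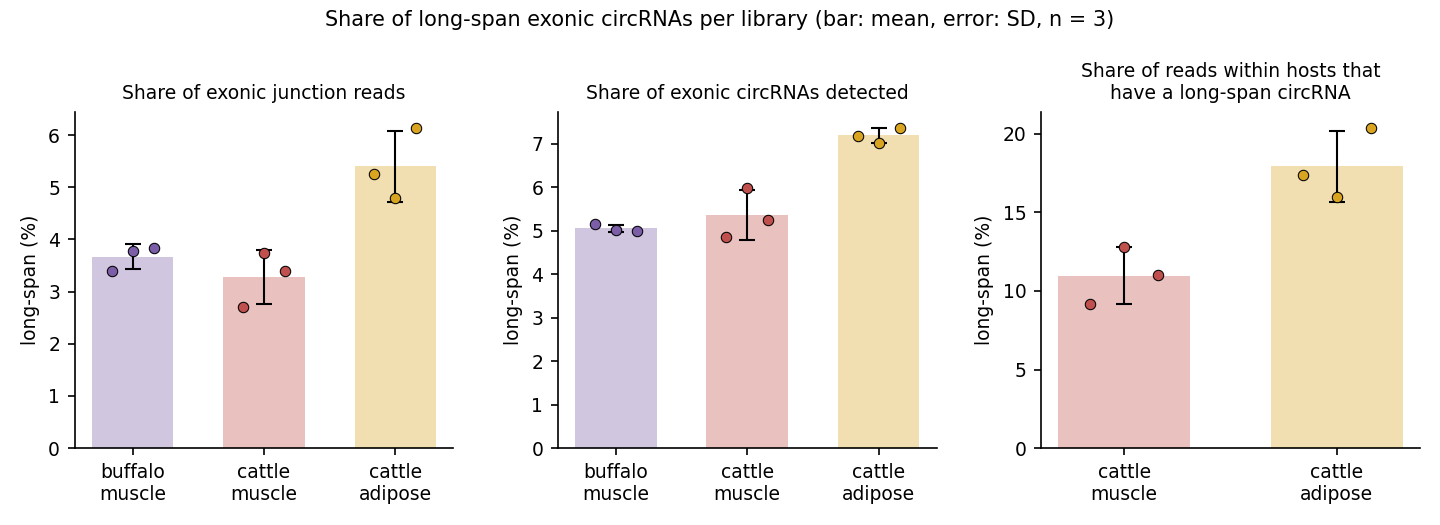
Long-span share of exonic junction reads (left), of exonic circRNAs detected (middle) and of the reads of hosts that have a long-span circRNA (right, cattle only), each in percent. Points are libraries, bars are means and error bars are SD (n = 3). The adipose points lie above all muscle points in each panel, from 4.79% to 6.14% against 2.71% to 3.84% in the left one.

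Single hosts showed the shift to different degrees. RPS6KC1, which encodes a kinase-like protein that binds phosphoinositides, had 2 of 18 exonic reads on long-span junctions in cattle muscle (11.1%) and 25 of 38 in adipose tissue (65.8%). For PHKB, the regulatory beta subunit of phosphorylase kinase, the reads were 4 of 49 (8.16%) and 24 of 66 (36.4%). RERE, a transcriptional corepressor, had 21 of 69 (30.4%) in muscle and 63 of 106 (59.4%) in adipose tissue. Other hosts did not follow. ADGRL3, an adhesion G protein-coupled receptor, had 18 of 31 (58.1%) in muscle and 56 of 136 (41.2%) in adipose tissue, and ARHGAP10, a GTPase-activating protein, had 19.3% and 20.5%. These hosts were chosen after their values were seen, and their shares are descriptions.

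Long-span circRNAs had fewer reads each than the other exonic ones of the same library. The mean number of reads per detected long-span circRNA was 1.49, 1.74 and 1.63 in the buffalo muscle libraries, 1.68, 2.39 and 2.58 in cattle muscle and 1.79, 2.23 and 2.81 in cattle adipose tissue. The other exonic circRNAs had 2.30, 2.34 and 2.14, then 3.07, 3.92 and 4.07, then 2.49, 3.35 and 3.41. The long-span mean was lower in 9 of 9 libraries. Over the 6 muscle libraries, which come from 6 animals, the log2 ratio of long-span to other was -0.62 ± 0.18 (SD), a ratio of 0.653, with an exact two-sided sign-flip permutation p of 0.03125, the smallest it can give. No long-span circRNA reached the level of the leading exonic circRNAs. The highest count of a member in a library was 22 in adipose tissue, 31 in cattle muscle and 8 in buffalo muscle, where that of another exonic circRNA was 383, 1387 and 82.

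Span classes gave a gradient that did not start at 50000 bp. In cattle muscle the mean reads per circRNA over 3 libraries were 6.86 below 5000 bp, 4.31 at 20000 to 50000 bp, 2.98 at 50000 to 100000 bp, 2.31 at 100000 to 200000 bp and 1.75 above that. In adipose tissue the corresponding values were 5.23, 3.45, 2.92, 2.62 and 2.53, and in buffalo muscle 3.62, 2.60, 2.02, 1.64 and 1.33. Cattle muscle was above adipose tissue in the shorter classes and below it above 100000 bp. Junctions of 100000 bp and over took 1.26%, 1.06% and 1.39% of the exonic reads in the adipose libraries and 0.44%, 0.71% and 0.60% in the cattle muscle libraries. With the threshold at 30000 bp the tissues met, since cattle muscle 2 had 11.60% and adipose 2 had 11.59%.

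**Figure D2:**
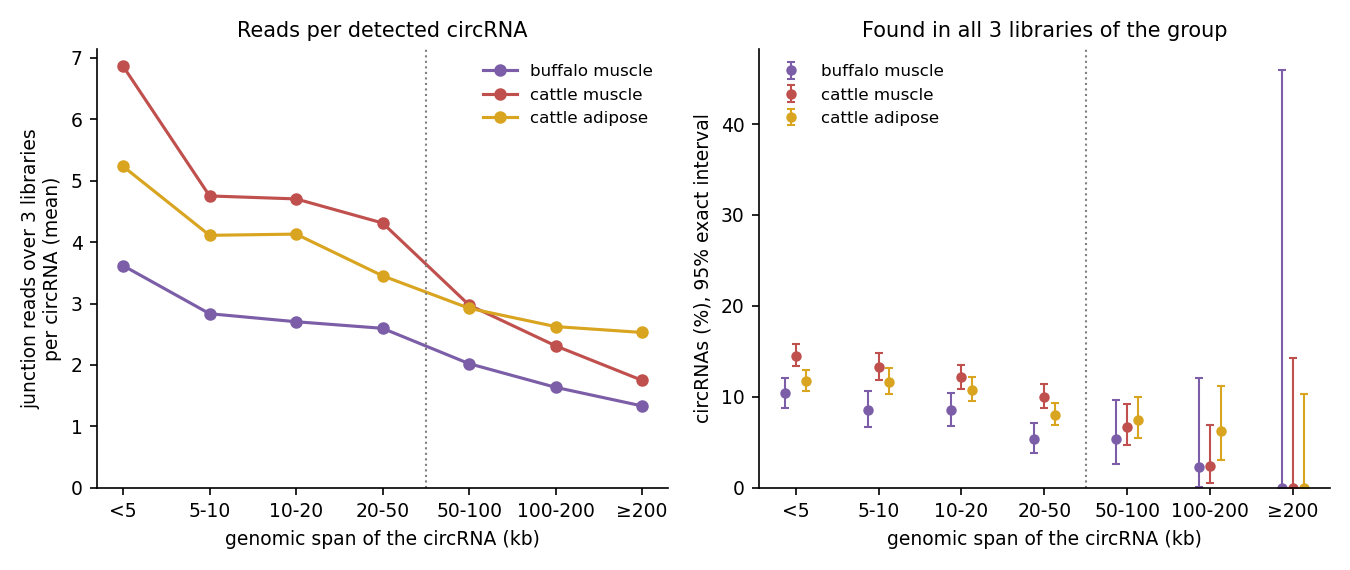
Mean junction reads per detected exonic circRNA, summed over the 3 libraries of a group (left), and percent of circRNAs found in all 3 libraries with 95% exact intervals (right), by genomic span in kb. The dotted line marks 50 kb. Reads per circRNA are highest in the shortest class and lowest in the longest in all 3 groups, 6.86 and 1.75 in cattle muscle.

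Most members were seen in 1 library. Of the 237 in buffalo muscle, 203 were in 1 library, 23 in 2 and 11 in 3. In cattle muscle the numbers were 536, 82 and 37, and in cattle adipose tissue 628, 99 and 54. The share found in all 3 libraries was 4.64% in buffalo muscle (95% exact interval 2.34 to 8.15), 5.65% in cattle muscle (4.01 to 7.70) and 6.91% in adipose tissue (5.24 to 8.93). It was 8.54%, 12.8% and 10.6% for the other exonic circRNAs, above the upper end of each of these intervals. The intervals take circRNAs as independent, although members share hosts and libraries. They do not measure the spread between animals. At matched reads the gap differed between bins. Among circRNAs with 3 to 5 reads in a group, 4.24% of long-span and 8.35% of other exonic ones were in all 3 cattle muscle libraries, 5.75% and 5.62% in all 3 adipose libraries and 13.3% and 11.9% in all 3 of buffalo muscle. In that bin 64.4% of the long-span ones and 48.8% of the others were in a single cattle muscle library, and 66.1% and 54.7% in a single adipose library. For a single buffalo muscle library the values were 33.3% and 32.6%. Among those with 6 to 10 reads, 15 of 34 long-span ones (44.1%) and 378 of 846 others (44.7%) were in all 3 cattle muscle libraries, and 19 of 43 (44.2%) and 288 of 781 (36.9%) in all 3 adipose libraries. Above 10 reads the shares were 73.9% and 87.1% in cattle muscle and 80.6% and 85.9% in adipose tissue, with intervals of the long-span values that ran from 51.6% to 89.8% and from 62.5% to 92.5%. In buffalo muscle, 40.0% (2 of 5) of the members with 6 to 10 reads and 53.4% of the others were in all 3 libraries, and 5 of 5 members with over 10 reads were.

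The longest members rested on a few reads. The longest with a read was from PRKG1, a cGMP-dependent protein kinase, at chr26:6957745-8161181 on the UMD3.1 build (span 1203436 bp), with 0, 4 and 0 reads in cattle muscle. In adipose tissue it was from LPP, a focal adhesion protein, at chr1:79157891-79601396 (443505 bp), with 0, 0 and 6 reads. In buffalo muscle it was from NFIA, a transcription factor, at chr3:84805977-85137051 (331074 bp), with 0, 0 and 2 reads. None of the members of 200000 bp and over was in all 3 libraries of a group, although 34 were detected in adipose tissue, 24 in cattle muscle and 6 in buffalo muscle. Among members found in all 3 libraries of a group, the longest was SSBP2 in adipose tissue, at chr7:83746937-83924935 (177998 bp), with 2, 1 and 2 reads. The next there were LPP at chr1:79425462-79601396 with 5, 2 and 1 reads and UVRAG at chr15:56155544-56291531 with 3, 2 and 1 reads. In cattle muscle the longest were FGGY (145485 bp) with 1, 2 and 5 reads, TTC27 (142755 bp) with 1, 3 and 3 reads and ZBTB16 (129241 bp) with 5, 13 and 4 reads. ZBTB16 was also the longest in all 3 buffalo muscle libraries, with 6, 2 and 3 reads.

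In muscle the highest members came from MLIP, which encodes the muscular LMNA-interacting protein, a lamin-binding protein of striated muscle. Its junction at chr23:6183527-6251576 (span 68049 bp) had 3, 4 and 8 reads in buffalo muscle, 0, 31 and 31 in cattle muscle and none in adipose tissue. The level was 0.0806 ± 0.0465 RPM in buffalo muscle and 0.534 ± 0.467 RPM in cattle muscle, where replicate 1 lacked it. A longer junction at chr23:6157906-6251576 (93670 bp) had 1, 3 and 3 reads in buffalo muscle and 7, 24 and 6 in cattle muscle. A shorter one at chr23:6196937-6251576 (54639 bp) had 0, 0 and 2 reads and then 1, 24 and 10. All 3 junctions end at the same base and differ in the start. Together the long-span junctions held 134 of the 285 exonic reads of MLIP in cattle muscle (47.0%) and 25 of 70 in buffalo muscle (35.7%). In adipose tissue MLIP had 1 exonic read in all.

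Outside MLIP, the members among the 5 highest in cattle muscle were PIAS2 and an unnamed host. PIAS2, a SUMO E3 ligase, had 7, 19 and 17 reads from chr24:47012671-47062975 (50304 bp), at 0.370 ± 0.161 RPM, and 0, 4 and 0 reads in adipose tissue. The host listed only as ENSBTAG00000046684, at chr10:102086392-102147781 (61389 bp), had reads in all 9 libraries. It had 3, 6 and 4 reads in buffalo muscle, 14, 11 and 17 in cattle muscle (0.369 ± 0.108 RPM) and 8, 4 and 7 in adipose tissue (0.168 ± 0.0558 RPM). It was the only exonic junction of that host in muscle. PICALM, a clathrin assembly protein, at chr29:9613012-9665392 (52380 bp) had 3, 5 and 3 reads, then 6, 24 and 2, then 1, 7 and 5. RABGAP1, a Rab GTPase-activating protein, at chr11:94122333-94174299 (51966 bp) had 1, 1 and 3, then 3, 3 and 5, then 5, 13 and 3. These last 3 junctions were the only members found in all 9 libraries, where 117 other exonic circRNAs were.

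The remaining members among the 5 highest in buffalo muscle were BOLL and ZBTB16. BOLL, an RNA-binding protein known from germ cells, had 6, 7 and 2 reads from chr2:86630869-86689394 (58525 bp) at 0.0782 ± 0.0399 RPM. It had no read of this junction in the 6 cattle libraries, although other exonic BOLL junctions were at 0.81 RPM in cattle muscle and 0.32 RPM in buffalo muscle. ZBTB16, a zinc finger transcription factor, was at 0.0575 ± 0.0306 RPM in buffalo muscle and 0.184 ± 0.108 RPM in cattle muscle from chr15:24920622-25049863, and had 0, 1 and 0 reads in adipose tissue.

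Among the 5 highest members in cattle adipose tissue were those from RERE, RPS6KC1, UVRAG and CPNE8. RERE at chr16:45662706-45725185 (62479 bp) had 12, 10 and 12 reads in adipose tissue at 0.301 ± 0.0292 RPM, against 2, 9 and 4 in cattle muscle at 0.126 ± 0.0809 RPM, without overlap. UVRAG, a protein of autophagy and endosome traffic, had 5, 11 and 7 reads from chr15:56028792-56080258 (51466 bp) in adipose tissue and 1, 0 and 0 in cattle muscle. RPS6KC1 at chr16:72368427-72423198 (54771 bp) had 3, 5 and 16 reads against 0, 1 and 0. CPNE8, a calcium-dependent membrane-binding copine, had 2, 17 and 3 reads from chr5:42570607-42627362 (56755 bp) against 0, 1 and 0. Adipose 3 held most of the RPS6KC1 reads and adipose 2 most of the CPNE8 reads.

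**Figure D3:**
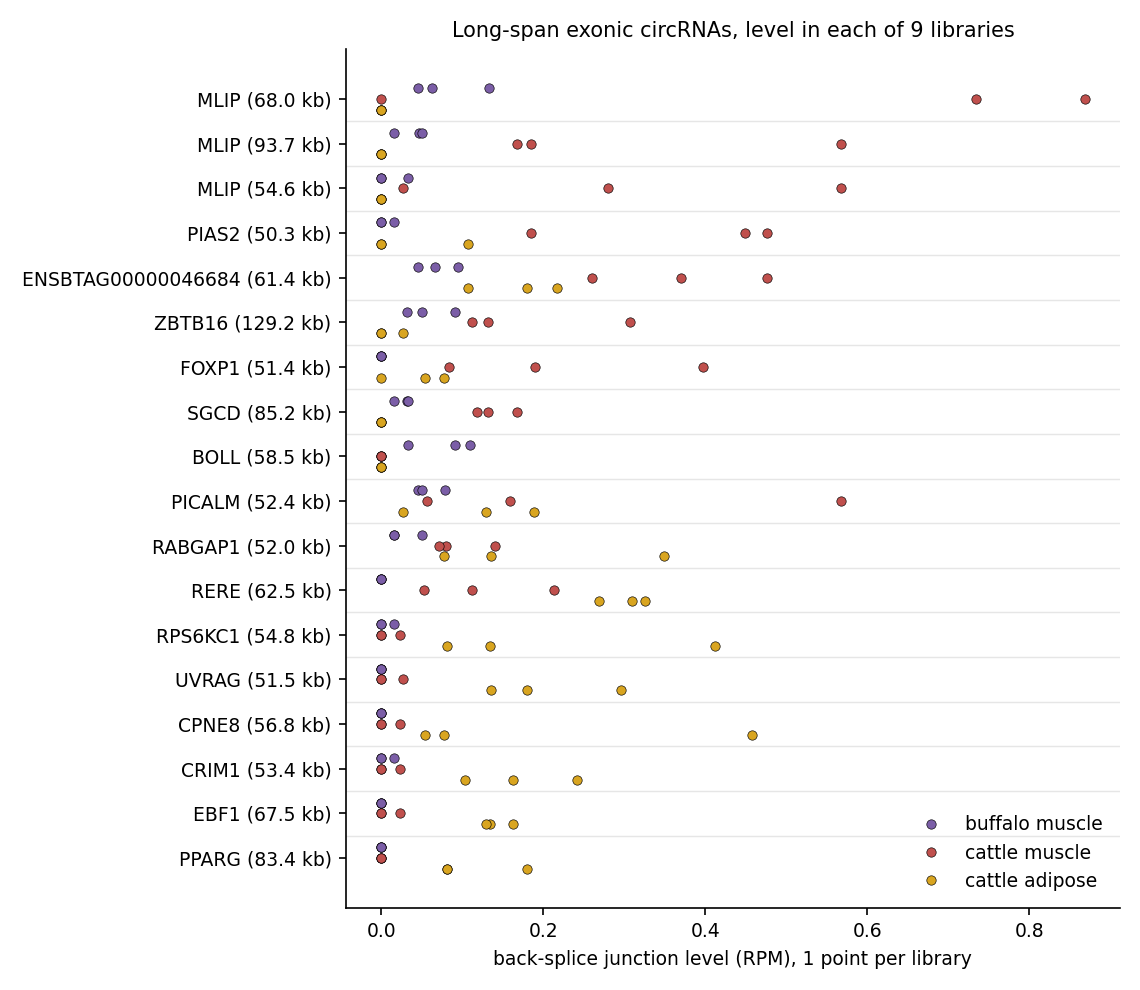
Level of 18 long-span exonic circRNAs in RPM, 1 point per library, with the host symbol and the genomic span in kb at the left. The MLIP and SGCD junctions shown have no point above 0 in adipose tissue, and PPARG none above 0 in muscle. The widest spread is that of the 68.0 kb MLIP junction in cattle muscle, with 1 library at 0.

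Cattle muscle was then compared with cattle adipose tissue junction by junction. A fit of limma on log2(RPM + 1) was run over the 1917 circRNAs with at least 2 reads in at least 3 of the 6 libraries, of which 67 were long-span and 1172 members were not tested. A junction can pass this filter through 1 tissue and must then differ. Of the 67, 4 had 2 reads in the 3 muscle libraries and in no adipose library, 11 had them in the 3 adipose libraries and in no muscle library, and 52 had them in libraries of both tissues. By limma with Benjamini-Hochberg adjustment, 0 of the 67 were called higher in muscle, where 3.08% of all circRNAs tested were, and 0 were called higher in adipose tissue, where 0.156% were. At an unadjusted p under 0.05 there were 15 of the 67 long-span circRNAs and 276 of the 1636 other exonic ones tested. The edgeR quasi-likelihood test on the recovered reads with library totals called 2 long-span circRNAs higher in muscle (5.32% of all tested) and 0 higher in adipose tissue (0.574% of all). With TMM scaling it called 4 and 4 (7.15% and 1.36% of all tested). Of the members called by edgeR with either scaling, all except PIAS2 had passed the filter through 1 tissue alone. Nothing is read from those calls.

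Of the 67, 23 had a higher mean in muscle and 44 in adipose tissue, beside 884 and 752 of the 1636 other exonic circRNAs tested. The median difference was -0.05 on the log2(RPM + 1) scale for long-span circRNAs and 0.01 for the other exonic ones and for all circRNAs tested. That scale understates the change of circRNAs at such levels. These counts move with the filter, since 35 of the 67 had 2 reads in exactly 3 libraries and fail it when 1 of those is left out. Without adipose 1, 2 or 3, 49, 41 and 45 long-span circRNAs were tested and 55.1%, 56.1% and 48.9% of them were below 0. Of the other exonic circRNAs, 47.0%, 34.1% and 45.8% were below 0 in those fits. Without cattle muscle 1, 2 or 3, 58, 54 and 50 long-span circRNAs were tested and 65.5%, 79.6% and 74.0% were below 0. The other exonic circRNAs had 47.1%, 53.1% and 53.3% there. The 3 muscle libraries lay above the 3 adipose libraries in 8 of the 67 (11.9%), where 15.3% of all circRNAs tested did. The adipose libraries lay above the muscle libraries in 14 (20.9%), where 7.93% of all circRNAs tested and 7.33% of the other exonic ones did. Of these 14, 11 had passed the filter through the adipose libraries alone, as 58 of the 152 among all tested had, and 4 of the 8 on the muscle side through muscle alone, so nothing is read from these counts.

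**Figure D4:**
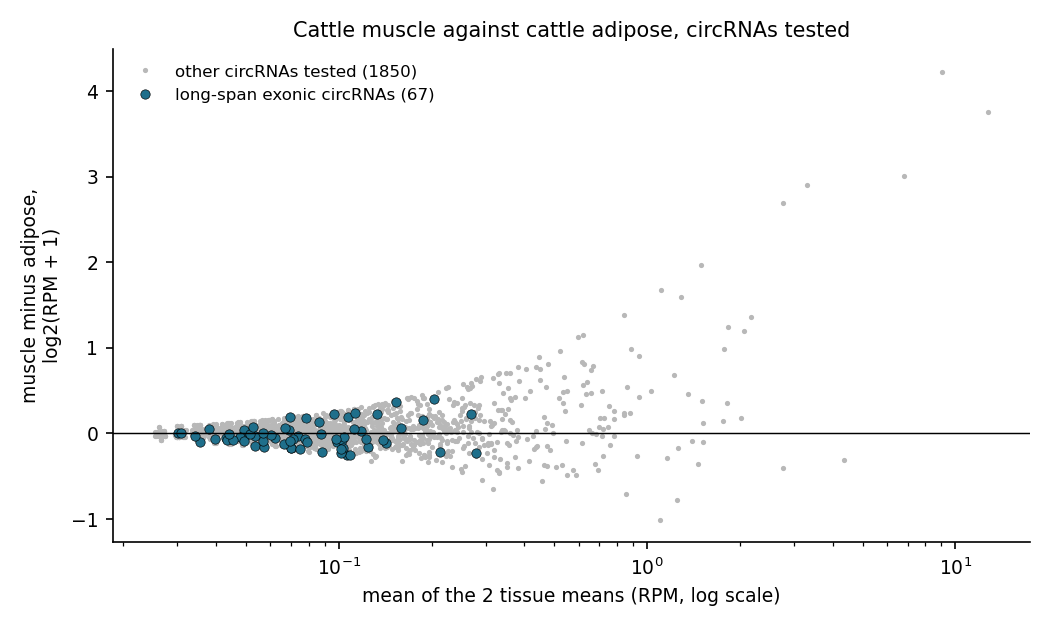
Difference between cattle muscle and cattle adipose tissue in log2(RPM + 1) against the mean of both tissue means in RPM (log axis), for 1917 circRNAs tested, of which 67 are long-span (blue). The long-span points lie between -0.25 and 0.40 and at low levels, and 44 of them are below 0.

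The members on the muscle side by the edgeR test with library totals were the 93670 bp junction of MLIP and PIAS2, named here after their values were seen. MLIP, SGCD and ZBTB16 in this paragraph passed the filter through the muscle libraries alone, so their values are descriptions of junctions that had to differ. For MLIP, 37 reads in muscle (7, 24 and 6) stood against none in adipose tissue. That was at least 12.02-fold higher in muscle against a floor of 3 reads over the 3 adipose libraries. The 95% counting lower limit was 9.30 (edgeR adjusted p = 0.00207, limma adjusted p = 0.147). Cattle muscle 2 held 24 of the reads, so the bound rests mostly on that library. PIAS2 was 10.5 times higher in muscle by summed reads (95% counting interval 3.81 to 40.2, edgeR adjusted p = 0.0323, limma adjusted p = 0.0843). SGCD, the delta-sarcoglycan of the dystrophin complex in the muscle membrane, had 5, 5 and 6 reads in cattle muscle and 1, 2 and 2 in buffalo muscle from chr7:69786276-69871465 (85189 bp) and none in adipose tissue. Its level in cattle muscle was at least 5.20-fold higher by the same floor (counting lower limit 3.76), with a limma adjusted p of 0.0766 and an edgeR adjusted p of 0.0504. It was the only exonic junction of SGCD in both muscles. Another long-span SGCD junction had 4 reads in the cattle libraries, all in adipose 3. ZBTB16 (129241 bp) had 22 reads in cattle muscle and 1 in adipose tissue, a ratio of 21.4 with a counting interval of 3.47 to 885 (limma adjusted p = 0.158, edgeR adjusted p = 0.0750). FOXP1, a forkhead transcription factor, had 15, 8 and 3 reads from chr22:30711572-30763007 against 0, 2 and 3, a ratio of 5.07 (1.92 to 16.9) with a limma adjusted p of 0.287.

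On the adipose side the members named here all passed the filter through the adipose libraries alone, apart from the second EBF1 junction, so their values too are descriptions. EBF1, an early B-cell factor that acts in fat cell formation, had 6, 5 and 5 reads in adipose tissue and 0, 1 and 0 in cattle muscle from chr7:72478719-72546237 (67518 bp). The ratio was 16.4 with a counting interval of 2.55 to 688 (limma adjusted p = 0.0843, edgeR adjusted p = 0.123). A second EBF1 junction with the same end, at chr7:72428825-72546237 (117412 bp), had 2, 1 and 3 reads against 3, 3 and 0. PPARG, the nuclear receptor that directs adipocyte differentiation, had 3, 3 and 7 reads from chr22:57384980-57468411 (83431 bp) in adipose tissue and none in muscle of either species, at least 4.44-fold higher than in cattle muscle by that floor (counting lower limit 3.13, limma adjusted p = 0.189, edgeR adjusted p = 0.0741). UVRAG (51466 bp) had a ratio of 23.6 in favour of adipose tissue (3.83 to 972, limma adjusted p = 0.0843, edgeR adjusted p = 0.0545). CRIM1, a membrane protein that binds bone morphogenetic proteins, had 6, 9 and 4 reads from chr11:18876350-18929785 against 0, 1 and 0 (limma adjusted p = 0.112). PHKB at chr18:15963492-16069695 had 4, 6 and 2 reads and NTRK2, a neurotrophin receptor, at chr8:79371027-79437974 had 3, 3 and 2, both with no read in cattle muscle. None of the members named in this paragraph passed either test with library totals. With TMM scaling edgeR called PPARG (adjusted p = 0.0476) and UVRAG (adjusted p = 0.0318), and with a pseudocount of 0.1 limma called UVRAG (adjusted p = 0.0278) and CRIM1 (adjusted p = 0.0468). Of the hosts named here, PPARG also stands in the adipose marker list, whose summed level moved with the tissue as given above.

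Hosts of long-span circRNAs were hosts of many circRNAs. They numbered 182 of 2229 exonic hosts in buffalo muscle (8.17%), 395 of 3825 in cattle muscle (10.3%) and 424 of 3689 in adipose tissue (11.5%). Their median number of exonic junctions was 3, 5 and 5, against 1, 2 and 1 in other hosts, and 139, 254 and 258 of them had a single long-span member. A host with more junctions has more chances to hold a long-span one, so these medians also move with how the hosts were chosen. Among long-span hosts with several exonic junctions, a long-span one was the highest in 43 of 149, 65 of 355 and 94 of 386. The median long-span share of reads in such hosts was 25.0%, 15.8% and 21.3%. No expected count stands beside these values, so they are descriptions. The mRNA level of the hosts did not stand out. In the 3 buffalo muscle libraries the median log2(FPKM + 1) of long-span hosts minus that of other hosts was -0.08, 0.07 and 0.005, where FPKM is fragments scaled to transcript length and library size, and the values were summed over the transcripts of a gene.

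The hosts with most members in the cattle table were DPYD with 17, ARHGAP10 and UVRAG with 11 each, and DOCK1, LAMA2 and ITPR2 with 10 each. DPYD encodes dihydropyrimidine dehydrogenase of pyrimidine breakdown, and 30 of its 34 long-span reads were in adipose tissue, where it had 45 exonic reads in all against 6 in muscle. Its long-span share was 66.7% in both tissues. LAMA2, the laminin alpha 2 chain of the muscle basement membrane, had 25 of 31 in muscle, with 95 exonic reads there against 18 in adipose tissue and long-span shares of 26.3% and 33.3%. ARHGAP10 had 56 reads in muscle and 51 in adipose tissue. Its junction at chr17:10295155-10348284 (53129 bp) had 1, 17 and 7 reads in muscle and 0, 2 and 0 in adipose tissue, whereas the one at chr17:10295155-10352418 (57263 bp) with the same start had 0, 7 and 6 against 3, 8 and 8. In buffalo muscle DOCK1, a Rac exchange factor, led with 5 members and 7 reads, before MLIP with 4 members and 25 reads and 7 hosts with 3. Among those 7, MNAT1, an assembly factor of the CDK-activating kinase, had 13 of its 14 exonic reads on long-span junctions.

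Many members shared an end with another circRNA. In cattle muscle 57.1% of the long-span circRNAs had a start and 54.5% an end that another exonic circRNA of the same tissue also used, against 35.3% and 35.9% of the other exonic circRNAs. Both ends were used elsewhere in 32.5% and 13.8%. The corresponding values for both ends were 33.2% and 14.2% in adipose tissue and 18.1% and 6.37% in buffalo muscle. Since long-span hosts had more junctions, these shares move with the number of junctions per host, whose part was not tested.

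Among the host lists, the adipocyte and lipid list had 21 long-span circRNAs of 74 exonic ones in adipose tissue (28.4%) and 8 of 60 in cattle muscle (13.3%). Over all exonic circRNAs of the tissue the shares were 7.83% and 6.26%. Its long-span hosts in adipose tissue were LPP, ACACA, EBF1, PPARG, NTRK2 and ZNF423, and 6 junctions were in all 3 libraries. LPP, a focal adhesion protein, gave 7 of the 21 junctions and 30 of the long-span reads, and the neurotrophin receptor NTRK2 gave 8 of those reads. The reads on long-span junctions of this list were 98 of 1039 (9.43%) in adipose tissue and 21 of 955 (2.199%) in cattle muscle, where all hosts together had 5.31% and 3.38%. For buffalo muscle this list had 1 of 22 circRNAs (4.55%) and 1 of 430 reads (0.233%), where all hosts together had 5.63% and 3.67%. The sarcomere, Z-disc and costamere list had 12 of 176 in cattle muscle (6.82%) with 38 of 2370 reads (1.60%), and SGCD was its only member in all 3 libraries. In buffalo muscle it had 6 of 86 and 15 of 635 reads. In adipose tissue it had 10 of 43 (23.3%), from UTRN, ANK3, PDLIM5 and SGCD, with 19 of 128 reads (14.8%), a larger share of reads than in the adipocyte and lipid list. The calcium handling list had 6 of 80 in cattle muscle (7.50%) and 7 of 48 in adipose tissue (14.6%), from ITPR2, CACNB2 and CAMK2D and from ITPR1 and ITPR2, and none was in all 3 libraries of a group. The extracellular matrix and adhesion list had 20 of 117 in cattle muscle (17.1%) and 21 of 132 in adipose tissue (15.9%), where LAMA4 at chr9:38716158-38797604 was in all 3 libraries with 2, 1 and 1 reads. Chromatin regulators had 22 of 165 (13.3%) and 17 of 151 (11.3%), with none in all 3 libraries. The ubiquitin system had 15 of 222 (6.76%) and 12 of 204 (5.88%), and UBR3, a ubiquitin ligase, was in all 3 cattle muscle libraries with 1, 2 and 3 reads. Hosts often named for circRNAs in mammals had 25 of 180 (13.9%) and 30 of 187 (16.04%), with members in all 3 libraries from PICALM, ARHGAP10, PRKCE and NTRK2.

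The last question was how far members were shared between tissues and species. In cattle, 458 members (37.0%) were found in muscle alone, 584 (47.1%) in adipose tissue alone and 197 (15.9%) in both. The other exonic circRNAs were in both tissues in 26.8%, in muscle alone in 38.7% and in adipose tissue alone in 34.5%. Of the adipose members, 25.2% were also in muscle (95% exact interval 22.2 to 28.4), against 43.8% of the other exonic circRNAs. With at least 3 reads in adipose tissue the shares were 45.2% and 65.2%, and with at least 10 reads 92.1% (35 of 38, interval 78.6 to 98.3) and 96.8%.

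Of the 237 buffalo muscle members, 82 had the same junction in cattle muscle (34.6%, interval 28.6 to 41.0), against 1966 of 3971 other exonic circRNAs (49.5%, interval 47.9 to 51.1). Without cattle muscle 2, the deepest library of its group, the shares were 21.9% and 41.3%. Each of the 3 buffalo libraries alone gave the lower share for long-span circRNAs, 38.3%, 41.9% and 38.6% against 57.6%, 56.5% and 56.3%. Seen from cattle muscle, the 82 shared junctions were 12.5% of the 655 members, and the 1966 were 20.03% of the 9816 others. The share was larger for junctions with more reads. At 1 read it was 28.6% for long-span and 38.9% for other exonic circRNAs, at 2 reads 32.0% and 50.7%, at 3 to 5 reads 53.3% and 63.0%, and above 5 reads 80.0% (8 of 10) and 87.0%. In the last pair of bins the long-span intervals (34.3 to 71.7 and 44.4 to 97.5) included the value of the others, so no difference could be told there at this depth. The intervals take circRNAs as independent and do not measure the spread between animals. By span, the share in cattle muscle was 50.3% below 5000 bp, 44.4% at 20000 to 50000 bp, 38.5% at 50000 to 100000 bp and 20.5% (9 of 44) at 100000 to 200000 bp. Of the buffalo muscle members, 61 (25.7%) were found in cattle adipose tissue and 100 (42.2%) in either cattle tissue, against 41.1% and 57.8% of the other exonic circRNAs.

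**Figure D5:**
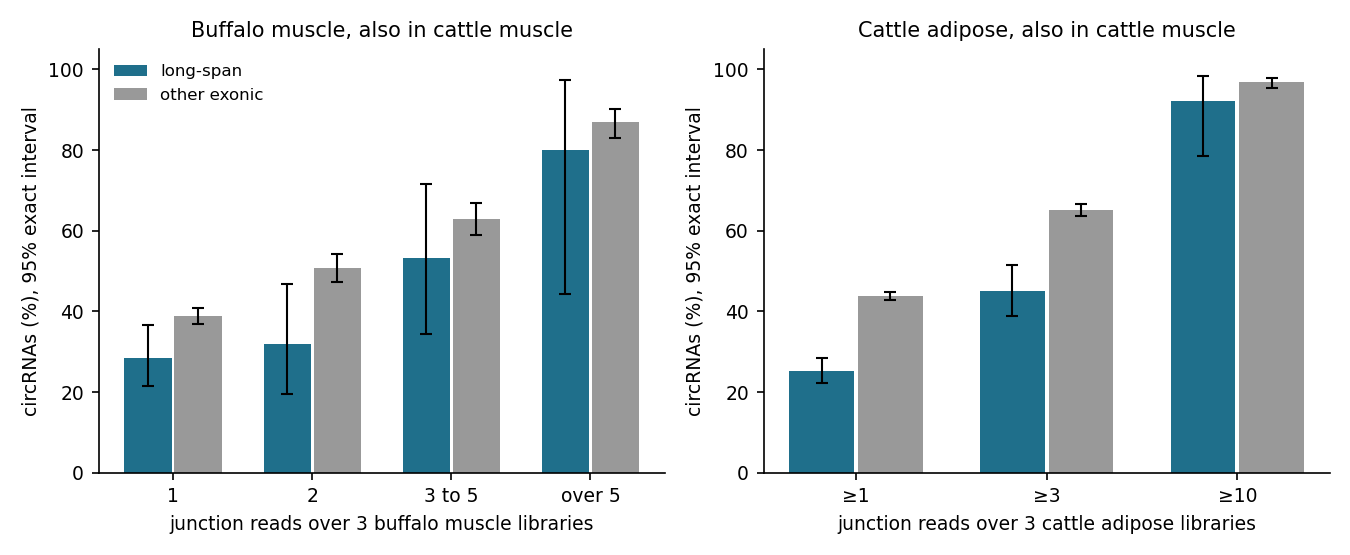
Percent of buffalo muscle circRNAs whose junction was also in cattle muscle, by junction reads in buffalo muscle (left), and percent of cattle adipose circRNAs also in cattle muscle, by minimum reads in adipose tissue (right), with 95% exact intervals. Long-span circRNAs are below the other exonic ones in each bin, from 28.6% against 38.9% at 1 read to 80.0% against 87.0% above 5 reads in the left panel.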

How the data were processed

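The authors made the libraries from total RNA with the TruSeq RNA LT v2 kit, and 9 of them were used here. The study's methods do not state whether RNA without a poly(A) tail was kept at this step. Its effect on circRNA levels and shares was not tested. Per the labels and the study's methods, reads of both species were trimmed with Trim Galore, aligned with STAR to a cattle genome (UMD3.1) and assembled with Cufflinks 2.2.1. Cuffdiff gave the level of each transcript. The circRNA caller and its filters are not given in the sources used here. For each back-splice junction the authors deposited RPM values beside coordinates, type and host gene. Transcript levels of mRNAs were deposited as FPKM. The tables also hold 9 columns of buffalo adipose tissue, which were not used. In a given library all circRNA values were whole multiples of the smallest one (100% within 0.01 reads). Junction reads and library totals were recovered from it, with the smallest value taken as a single read and the unit as RPM. The read counts and library totals given here rest on that assumption. FPKM values were summed per gene.

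Members were the exonic rows with a span of 50000 bp or more, and the members and lists were chosen with earlier results of these data known. Samples were grouped by species and tissue in the labels (n = 3). Nothing in the labels ties replicate numbers to animals across tissues. Cattle tissues come from the same 3 cattle, and the tests below treat the libraries as independent, so p-values measure the spread between these libraries. Shares were compared with exact two-sided permutation tests (20 arrangements) and reads per circRNA with an exact sign-flip permutation test (64 arrangements). Junctions were tested with limma 3.58.1 on log2(RPM + 1) over all circRNAs with at least 2 reads in at least 3 libraries, adjusted by Benjamini-Hochberg over all tested at 0.05, with edgeR 4.0.16 as an alternative (R 4.3.3). The scripts were tested on simulated data. Intervals are exact binomial at 95%. Those over circRNAs take each circRNA as independent, although members share hosts and libraries, and do not measure the spread between animals.

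Members named in the text, apart from 1 host that is not reported here, were the 5 highest by mean RPM in each group, the 3 longest among those found in all 3 libraries of a group, those found in all 9 libraries, the 5 hosts with most members in a species (ties kept) and members of the host lists found in all 3 libraries. The rule also asked for the 5 largest differences among called junctions, and since limma called none, junctions named for a tissue difference were chosen after their values were seen. Alternatives were the pseudocount, the filter, edgeR with 2 scalings, other span thresholds, thinning, a replicate block and leaving out each library. No sequence is printed, because no genome of the files' build was used.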

Additional observations from a re-analysis of the deposited data

How the results depend on the processing

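The calls between cattle tissues depended on the setting. Against 0 and 0 long-span circRNAs called higher in muscle and in adipose tissue by limma, a pseudocount of 0.1 gave 3 and 2 (106 and 17 of all 1917), no filter gave 1 and 1 (34 and 2 of 18535), edgeR with library totals gave 2 and 0 (MLIP and PIAS2), and edgeR with TMM gave 4 and 4. The called members were SGCD, MLIP (93670 bp), PIAS2, UVRAG and CRIM1 with the pseudocount, SGCD and EBF1 (67518 bp) without filter, and SGCD, MLIP, PIAS2, ZBTB16 (129241 bp), UVRAG, RPS6KC1, PPARG and CPNE8 (56755 bp) with TMM. Of those called with the pseudocount or with edgeR, all except PIAS2 had passed the filter through 1 tissue alone. Leaving out each library gave 0 to 1 (PIAS2 without cattle muscle 1) and 0 to 0. The replicate block gave 1 and 0, PIAS2 being the one called (adjusted p = 0.0400 by limma), and moved all calls from 59 and 3 to 71 and 15. Same-numbered muscle and adipose libraries correlated at 0.238, 0.169 and -0.0156 in their deviations from the group means. Pairs of unlike number were at -0.219 to 0.0401. Replicates 1 and 2 thus went best with their own number and replicate 3 did not. The labels do not state pairs, and these values do not settle whether the numbers are pairs. The main tests took the libraries as independent, with the replicate block beside them. Under the replicate block the difference in the read share was -2.12 percentage points with an exact p of 0.25, the smallest for 3 pairs. Named junctions passed the threshold in 19 alternative fits, as listed, and the log2 difference changed sign in 4 fits of others that were not called. With 1 library left out it was -0.13 to 0.0012 for ARHGAP10 (57263 bp), -0.0085 to 0.28 for PICALM and -0.024 to 0.031 for EBF1 (117412 bp).

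The difference in the share of detected circRNAs between buffalo and cattle muscle, -0.31 percentage points, turned to 0.42 after thinning to 3000 exonic reads. The log2 ratio of reads per circRNA was -0.66 to -0.56 when 1 library was left out, with an exact p of 0.0625, the smallest for 5 libraries. Against -0.62 in the main setting, it was -0.29 at a span threshold of 30000 bp and -0.77 at 100000 bp. Without the 10 highest other exonic circRNAs of each library it was -0.44. By read bins of 3 to 5, 6 to 10 and over 10, the share in all 3 libraries was 13.3%, 40.0% and 100% in buffalo muscle, and for the last pair of bins 44.1% and 73.9% in cattle muscle and 44.2% and 80.6% in adipose tissue, by construction of the bins. The gap between long-span and other exonic circRNAs in sharing with cattle muscle, -14.9 percentage points, was -17.8 with at least 2 reads, -10.3, -18.7, -9.68 and -6.96 in the bins of 1, 2, 3 to 5 and over 5 reads, which were chosen after seeing the data, and -19.4 to -12.9 with 1 library left out. The causes were not tested. Among the alternatives on these results, 62 were counted as unchanged. Those of a difference or ratio kept its direction, and those of a count of calls kept the count of 0. The rest were the shares in all 3 libraries at 3 to 5 reads, 4.24% in cattle muscle and 5.75% in adipose tissue. Other exonic circRNAs had 8.35% and 5.62% there, so the lower long-span share was not kept in adipose tissue. For the exact tests of 3 against 3 libraries the side of the threshold was fixed by the design and shows no stability. Depth limits most members, which rest on 1 or 2 reads.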
